A study of Mus musculus with 4 samples.

Results

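Regulators of G protein signalling (RGS proteins) were followed at the RNA level in primary mouse cortical neurons, with and without depolarization. The neurons were wild type or had a conditional knockout of the chromatin remodeller Brg1. The 10 genes described are Rgs2, Rgs3, Rgs4, Rgs7, Rgs8, Rgs10, Rgs12, Rgs16, Rgs17 and Rgs20, taken by symbol from a table of 22552 genes. They are part of the 21 RGS family genes in that table. Rgs5, a marker of mural cells (pericytes and smooth muscle of vessels), was kept apart from them. The 10 genes were selected on their FPKM values in these same 4 libraries, since they were listed with earlier results known, so every value below is a description. Per the labels, neurons were dissociated from cortices of E16.5 embryos, and the genotypes were wild type and Brg1-cko (BAF53bCre Brg1F/F), called cKO here, in which a Cre recombinase driven by the neuronal gene BAF53b deletes floxed Brg1. Each genotype was kept at a basal level of KCl or was given 50 mM KCl for 6 h on day 6 in vitro. The labels describe TTX (1 µM) and APV (100 µM), blockers of sodium channels and NMDA receptors, added on day 5 before depolarization, and they do not state whether the basal cultures also received them. They name no Cre or floxed allele for the wild type and do not say how many embryos or cultures made up a library.

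When a receptor activates a heterotrimeric G protein, the Gα subunit binds GTP and separates from Gβγ. RGS proteins bind the active Gα and speed up its GTP hydrolysis, so the signal ends sooner. The mammalian RGS genes fall into subfamilies. R4 proteins (here Rgs2, Rgs3, Rgs4, Rgs8 and Rgs16) are mostly small and consist of little more than the RGS domain. R7 proteins (Rgs7) work as stable dimers with the atypical Gβ subunit made from Gnb5. RZ proteins (Rgs17 and Rgs20) carry a cysteine string, and R12 proteins include the short Rgs10 and the large multidomain Rgs12. In cortical neurons RGS proteins limit signalling from neuromodulator receptors, such as those for acetylcholine, serotonin, noradrenaline and GABA.

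There were 4 groups with 1 library each, so no difference can be set against a spread between cultures, and there is no test. Values are FPKM, fragment counts scaled to transcript length and library depth, and the 4 libraries summed to between 302041 and 330621 FPKM. Depth was approximated at 20800000 to 23000000 fragments per library. Of the whole table, 13248 genes reached 1 FPKM in at least 1 library, all 10 RGS genes among them. Smarca4, which encodes Brg1, measured 34.0 FPKM in basal and 28.5 in depolarized wild-type neurons, against 10.5 and 10.4 FPKM in the cKO. Its RNA was thus lower but not absent in the cKO libraries. The 8 pan-neuronal markers that had values all reached 1 FPKM. They summed to 2771 FPKM in wild-type basal, 1951 in wild-type KCl, 2582 in cKO basal and 1764 in cKO KCl. Of these markers, 1 (Tubb3) was at least 2-fold lower after KCl in each genotype and none was higher. Of 18 immediate early genes, 16 were at least 2-fold higher after KCl in each genotype and none was lower. Sex makeup went with genotype: Xist measured 83.3 and 78.1 FPKM in wild type but 0.141 and 0.287 in the cKO. Xist alone does not show whether the wild-type cultures were all female or mixed. Genotype and sex makeup cannot be told apart in any comparison below. In bulk RNA, fewer cells of a type and less RNA per cell cannot be told apart either. Folds of single genes divide the deposited values by each other. The 95% intervals beside them come from the approximated fragments, taken on the shortest annotated coding transcript, and cover counting error only.

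The promoters of 4 genes, chosen after their values were seen, are shown for comparison: Rgs2, Rgs4 and Rgs16 stood higher after KCl in both genotypes, and Rgs17 lower. Each is the stretch of 250 bases before the annotated start in RefSeq (build GRCm38.p6), 5′ to 3′ on the strand of the gene. Capitals mark the letters TGACG or CGTCA (the core of the cAMP response element, CRE, on either strand) and TGANTCA (the AP-1 element), both known as elements of activity-regulated promoters. A match describes the letters only and does not show a bound site.

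Rgs2, chr1:144004150-144004399, minus strand: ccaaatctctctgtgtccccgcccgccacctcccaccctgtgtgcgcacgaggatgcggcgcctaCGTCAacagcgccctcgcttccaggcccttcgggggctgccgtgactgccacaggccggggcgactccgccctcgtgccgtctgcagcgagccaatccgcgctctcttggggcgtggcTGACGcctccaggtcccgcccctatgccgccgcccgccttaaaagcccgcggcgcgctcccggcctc
Rgs4, chr1:169747643-169747892, minus strand: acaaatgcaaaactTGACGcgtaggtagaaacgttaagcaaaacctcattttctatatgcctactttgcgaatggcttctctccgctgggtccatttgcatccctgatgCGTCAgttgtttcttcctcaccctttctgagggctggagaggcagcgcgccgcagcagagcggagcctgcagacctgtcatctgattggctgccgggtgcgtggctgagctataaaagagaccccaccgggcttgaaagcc
Rgs16, chr1:153740103-153740352, plus strand: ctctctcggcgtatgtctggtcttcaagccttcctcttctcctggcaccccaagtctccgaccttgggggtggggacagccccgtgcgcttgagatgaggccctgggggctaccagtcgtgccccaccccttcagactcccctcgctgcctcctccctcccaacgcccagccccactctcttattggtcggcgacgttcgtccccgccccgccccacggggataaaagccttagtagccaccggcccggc
Rgs17, chr10:5922401-5922650, minus strand: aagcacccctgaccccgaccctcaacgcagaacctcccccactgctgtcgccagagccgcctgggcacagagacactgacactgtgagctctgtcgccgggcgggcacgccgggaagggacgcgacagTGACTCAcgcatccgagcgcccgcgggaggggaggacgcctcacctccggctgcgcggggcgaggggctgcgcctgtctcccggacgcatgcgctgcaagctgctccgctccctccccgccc

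The Rgs2 stretch held the CRE core at 2 places, beginning 185 and 67 bases before the start, and so did the Rgs4 stretch, at 236 and 141 bases. The Rgs17 stretch held 1 AP-1 element, TGACTCA, at 122 bases, and the Rgs16 stretch held none of these letters. RefSeq promoters were matched for 9 of the 10 genes, with 13 starts in all. The core TGACG, a search added after the sequences were seen, occurred at 1 or more starts of 4 of the 9 genes (Rgs2, Rgs4, Rgs8 and Rgs12), and TGANTCA at those of 2 (Rgs12 and Rgs17). Counted by start, TGACG was in 4 of the 13 stretches and TGANTCA in 2 of the 13. None of the 9 held the full element TGACGTCA or a CArG box, the element bound by serum response factor. Over all 32851 RefSeq promoter stretches of this length, 17.8% held TGACG on either strand, 6.75% TGANTCA, 1.55% TGACGTCA and 1.47% a CArG box. Several of the genes lie beside each other: in the RefSeq list of protein-coding genes, Rgs8 and Rgs16 are direct neighbours on chromosome 1, as are Rgs5 and Rgs4, while Rgs2 adjoins a run of Rgs13, Rgs1, Rgs21 and Rgs18 on the same chromosome.

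The levels of the 10 genes spanned from under 1 FPKM to nearly 30 FPKM. In the wild-type basal library Rgs7 (20.1 FPKM) and Rgs4 (14.3) were highest, and Rgs12 (11.1), Rgs20 (10.7), Rgs17 (10.7), Rgs10 (9.82) and Rgs2 (9.74) followed close together. Counting intervals of neighbours in this group of 5 overlapped. Rgs16 (1.91), Rgs3 (1.60) and Rgs8 (1.34) were lowest, and their order is not resolved at this depth. In the wild-type KCl library the order was led by Rgs4 (27.0), Rgs2 (24.9) and Rgs7 (21.0). In the cKO KCl library it was led by Rgs4 (29.9), Rgs7 (20.4) and Rgs16 (19.8), and Rgs2 followed at 18.8. From the highest down, Rgs16 was number 8 of the 10 in both wild-type libraries and number 9 in the basal but number 3 in the depolarized cKO, while Rgs8 was lowest in all 4.

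**Figure D1:**
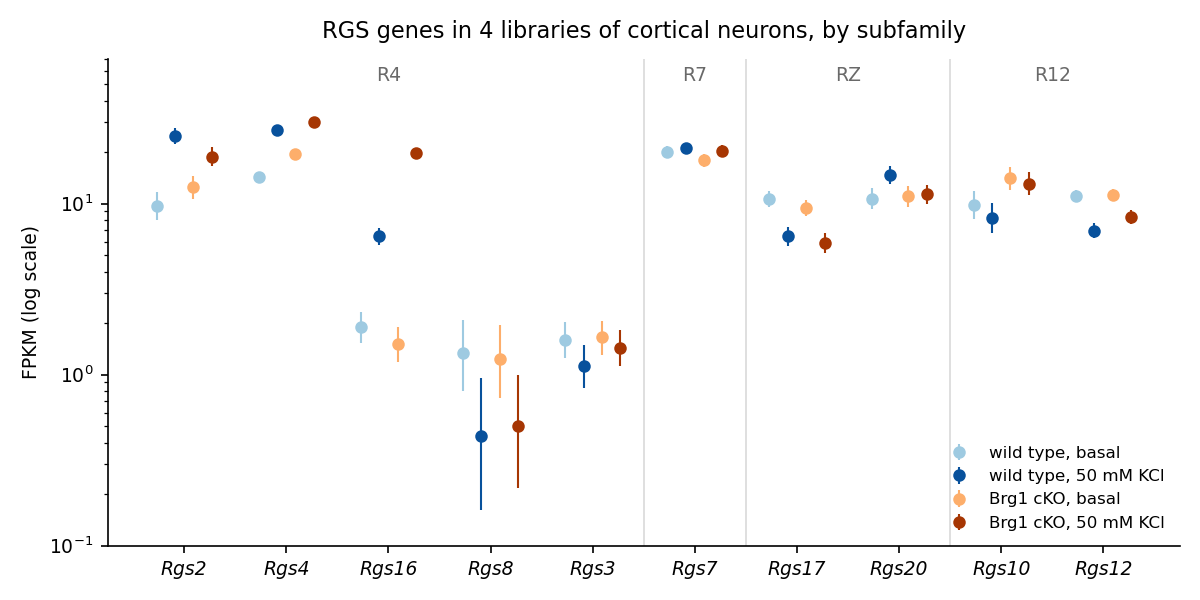
Level of each RGS gene (FPKM, log axis) in each of the 4 libraries, ordered by subfamily. Points are single libraries and bars are 95% counting intervals. Rgs16 spans from 1.51 to 19.8 FPKM, the widest spread of the 10 genes on the log2(FPKM + 1) scale.

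Summed over the 10 genes, the wild-type level was 91.3 FPKM at basal and 117.2 after KCl, and the cKO level was 100.0 and 129.5 FPKM. Both KCl sums were above both basal sums on the deposited scale. The sums were not taken under other scalings, which can change this order. With rescaling to ribosomal protein genes the KCl log2 ratio of Rgs4 went from 0.87 to 0.54 in wild type. In the cKO it went from 0.60 to 0.21. Of the wild-type sum, Rgs2 made up 10.7% at basal and 21.2% after KCl. In the cKO, Rgs2 went from 12.5% to 14.6% and Rgs16 from 1.51% to 15.3% of the sum. Rgs17 and Rgs12 made up smaller shares after KCl in both genotypes, with Rgs17 at 11.7% and 5.50% in wild type and 9.42% and 4.55% in the cKO.

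**Figure D2:**
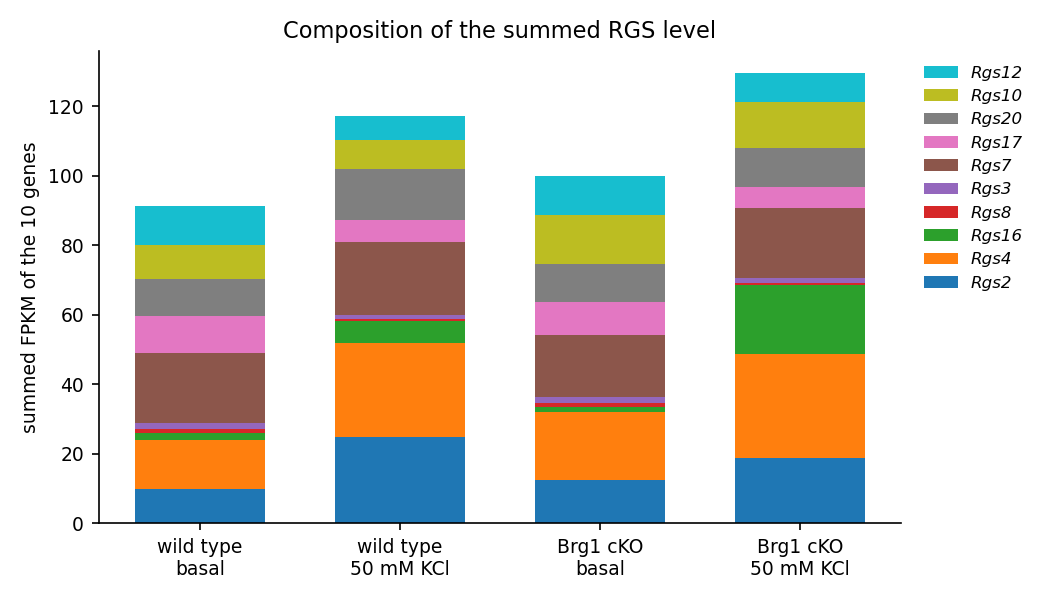
Summed FPKM of the 10 RGS genes in each library, stacked by gene. On the deposited scale the KCl bars (117.2 and 129.5 FPKM) are taller than the basal bars (91.3 and 100.0). The Rgs16 segment is thickest in the cKO KCl library.

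The R4 genes differed in the direction of their KCl ratios. In wild type, Rgs2, Rgs4 and Rgs16 stood higher after KCl and Rgs8 lower, while the interval of Rgs3 included no difference. By a fixed size of 2-fold on log2(FPKM + 1), 2 of the 10 RGS genes were higher in wild type (Rgs2 and Rgs16) and none was lower. Over all genes 5.07% were higher and 3.31% lower by the same size, 8.39% in either direction. In the cKO 1 of the 10 was higher (Rgs16) and none lower, where 4.41% of all genes were higher and 3.09% lower, 7.5% in either direction. The medians of the 10 log2 ratios were −0.08 and −0.03, and those of all genes −0.01 and 0.01. The genes were chosen with these values known, so nothing is read from the counts. With another scaling the split of calls over all genes moved: in wild type the higher genes made up 60.5% of those past 2-fold, against 25.6% with rescaling to ribosomal protein genes and 84.0% with rescaling to presynaptic genes. The corresponding shares in the cKO were 58.8%, 22.1% and 82.2%. After these rescalings the all-gene median lay at −0.31 and 0.24 in wild type, and at −0.34 and 0.27 in the cKO.

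Rgs2 acts mainly on Gαq, the G protein of phospholipase C signalling, and is a known activity-induced gene. It stood at 9.74 FPKM in wild-type basal, 24.9 in wild-type KCl, 12.5 in cKO basal and 18.8 in cKO KCl. Both KCl libraries were above both basal libraries, and the cKO pair lay closer together than the wild-type pair. The level after KCl was 2.55-fold higher in wild type (2.07 to 3.19) and 1.51-fold higher in the cKO (1.24 to 1.86). The log2 response of the cKO minus that of wild type was −0.71 (−0.75 without the added 1, interval −1.17 to −0.34), and a higher basal and a lower KCl value both entered it. With rescaling to ribosomal protein genes the wild-type log2 ratio was 0.94 in place of 1.27, which is under 2-fold.

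Rgs4, an abundant cortical R4 gene acting on Gαi/o and Gαq, stood at 14.3 FPKM in wild-type basal, 27.0 in wild-type KCl, 19.4 in cKO basal and 29.9 in cKO KCl. Both KCl libraries were again above both basal libraries, and in each condition the cKO library was the higher one. The KCl value was 1.89-fold higher in wild type (1.73 to 2.07) and 1.54-fold higher in the cKO (1.43 to 1.66), neither reaching 2-fold. The wild-type log2 ratio of 0.87 became 1.14, past 2-fold, with rescaling to presynaptic genes. The log2 difference in response was −0.28 (−0.30 without the added 1, interval −0.47 to −0.13).

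Rgs16, an R4 protein that acts on Gαi/o and Gαq, had the largest response of the 10 genes in both genotypes. It stood at 1.91 FPKM in wild-type basal, 6.44 in wild-type KCl, 1.51 in cKO basal and 19.8 in cKO KCl. The basal libraries were low and close together, and the cKO KCl library stood above the other 3. The KCl value was 3.37-fold higher in wild type (2.67 to 4.29) and 13.1-fold higher in the cKO (10.4 to 16.8). The log2 response was larger in the cKO by 1.69 (1.95 without the added 1, interval 1.48 to 2.43), number 25 from the top of 13248 genes. It was the only RGS gene past 2-fold in this difference, where 0.672% of all genes were past it upwards and 0.793% downwards, 1.46% in either direction. The difference was between 1.63 and 1.95 under the other scalings and pseudocounts.

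Rgs8, known best from cerebellar Purkinje cells, was the lowest of the 10 genes, at 1.34 FPKM in wild-type basal, 0.438 in wild-type KCl, 1.23 in cKO basal and 0.502 in cKO KCl. Both KCl libraries were below both basal libraries. These values rest on only about 6 to 19 fragments when the shortest transcript is taken. The KCl value was 3.05-fold lower in wild type (1.25 to 9.92) and 2.45-fold lower in the cKO (0.992 to 6.37), where the interval just included no difference. With 1 added to each value the log2 ratios were −0.70 and −0.57, short of 2-fold. They were −1.42 and −1.15 with 0.1 added. Its chromosomal neighbour Rgs16 was higher after KCl. Rgs3, a longer member of the R4 group, stood at 1.60, 1.12, 1.65 and 1.44 FPKM in the same order of libraries, and every one of its intervals included no difference.

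**Figure D3:**
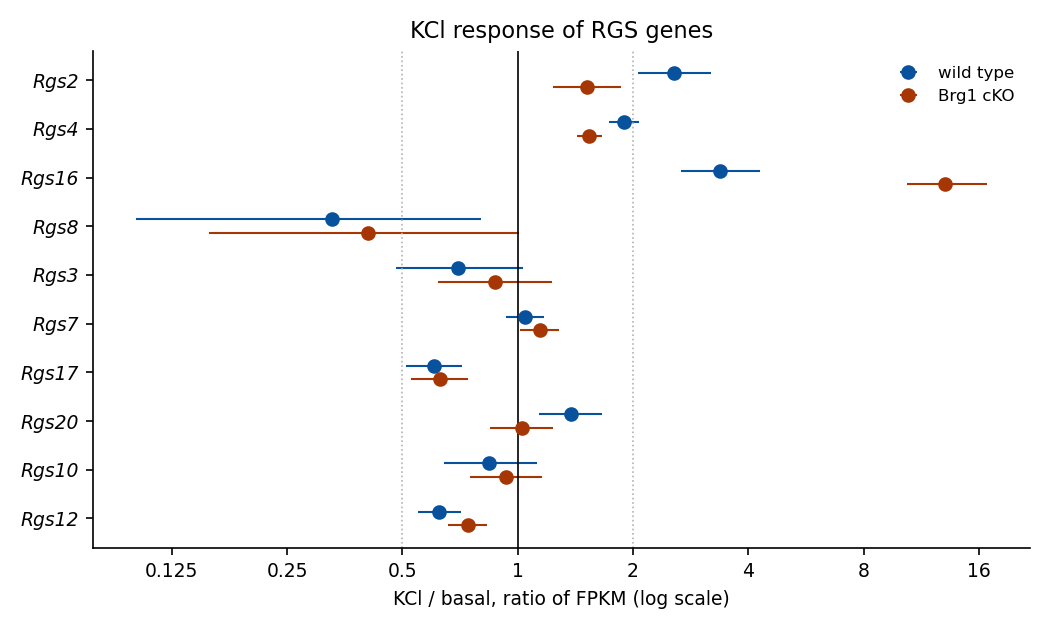
Ratio of KCl to basal FPKM for each RGS gene (log axis) in wild type and in the Brg1 cKO, 1 library per point, with 95% counting intervals and dotted lines at 2-fold. Rgs16 lies farthest right in both genotypes, at 3.37 and 13.1, and Rgs8, Rgs17 and Rgs12 lie on the left.

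Outside the R4 group the KCl responses were under 2-fold. Rgs7, the R7 member and a regulator of Gαi/o in neurons, stood at 20.1 FPKM in wild-type basal, 21.0 in wild-type KCl, 17.9 in cKO basal and 20.4 in cKO KCl. After KCl it was 1.04-fold higher in wild type (0.930 to 1.17) and 1.14-fold higher in the cKO (1.02 to 1.28), and the sign of both ratios turned with rescaling to ribosomal protein genes. The RZ gene Rgs17 stood at 10.7, 6.45, 9.42 and 5.89 FPKM in the same order, so both KCl libraries were below both basal libraries. It was 1.65-fold lower after KCl in wild type (1.40 to 1.96) and 1.60-fold lower in the cKO (1.35 to 1.90), and the log2 responses differed by only 0.05 (on the ratios without the added 1, interval −0.29 to 0.39). Rgs20, the other RZ gene and a regulator of Gαz, stood at 10.7, 14.7, 11.0 and 11.3 FPKM. The wild-type KCl library was the highest of the 4. The KCl ratio was 1.37 in wild type (1.14 to 1.66) and 1.03 in the cKO (0.845 to 1.24), a log2 difference of −0.39 (−0.42 without the added 1, interval −0.80 to −0.05). The sign of the cKO ratio turned with rescaling to ribosomal protein genes.

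Among the R12 genes, Rgs12, a large scaffold that also carries a GoLoco motif for binding Gαi, stood at 11.1 FPKM in wild-type basal, 6.95 in wild-type KCl, 11.3 in cKO basal and 8.36 in cKO KCl. Both KCl libraries were below both basal libraries. It was 1.60-fold lower after KCl in wild type (1.41 to 1.83) and 1.35-fold lower in the cKO (1.20 to 1.52). Rgs10, a short protein best known from microglia and other immune cells, stood at 9.82, 8.28, 14.1 and 13.1 FPKM. Here the cKO libraries were both above the wild-type libraries, and the intervals of both KCl ratios included no difference.

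The genotype comparison at basal KCl asks what differed before depolarization. None of the 10 RGS genes was past 2-fold in either direction, and 0.936% of all genes were higher and 0.551% lower, 1.49% in either direction. Of the genes past 2-fold 62.9% were higher, against 80.5% with rescaling to presynaptic genes, after which the all-gene median lay at 0.22. Counting intervals lay above 1 for Rgs10 (1.43-fold higher in the cKO, 1.12 to 1.83), Rgs4 (1.36-fold, 1.24 to 1.50) and, narrowly, Rgs2 (1.28-fold, with its lower bound at 1.00). No gene had an interval below 1. Rgs16 was 1.26-fold lower in the cKO (0.928 to 1.74), a difference not detectable at this depth.

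After KCl, 1 of the 10 genes was at least 2-fold higher in the cKO (Rgs16) and none was lower, against 1.87% and 0.944% of all genes, 2.82% in either direction. Of the genes past 2-fold 66.5% were higher, against 83.1% with rescaling to presynaptic genes (median of all genes 0.25). Rgs16 was 3.07-fold higher in the cKO (2.71 to 3.49). Rgs10 was 1.58-fold higher (1.22 to 2.04), Rgs12 1.20-fold higher (1.05 to 1.38) and Rgs4 1.11-fold higher (1.03 to 1.19). Rgs2 was 1.32-fold lower (1.12 to 1.57) and Rgs20 1.30-fold lower (1.09 to 1.56). The remaining 4 genes had intervals that included no difference. These intervals were taken on the deposited scale only. Under the other scalings and pseudocounts the log2 ratio was between 0.06 and 0.38 for Rgs4 and between 0.16 and 0.46 for Rgs12. It was between −0.46 and −0.15 for Rgs2 and between −0.43 and −0.12 for Rgs20. All these comparisons share libraries with the KCl comparisons, so the same value enters more than 1 of them.

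**Figure D4:**
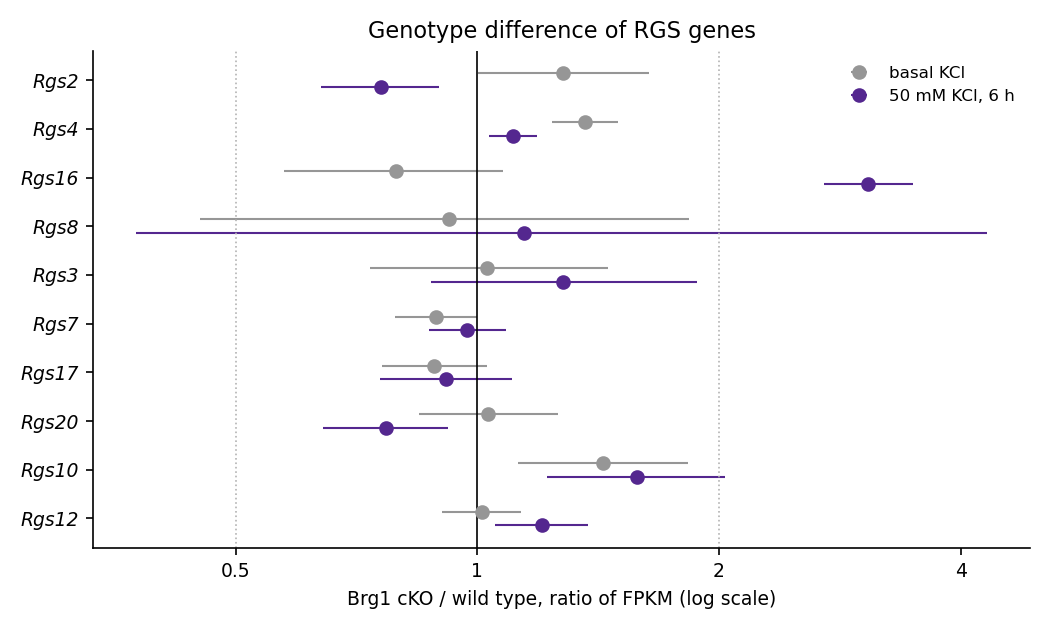
Ratio of Brg1 cKO to wild-type FPKM for each RGS gene (log axis) at basal KCl and after 6 h of 50 mM KCl, 1 library per group, with 95% counting intervals and dotted lines at 2-fold. Rgs16 after KCl, at 3.07, is the only point past 2-fold. Rgs2 lies on opposite sides of 1 in the 2 conditions.

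Cell types other than neurons also differed between these libraries. Of 12 microglia markers, 4 were at least 2-fold higher in the cKO at basal KCl and 9 after KCl, none was lower, and none was at 0. With rescaling to presynaptic genes 9 were higher at basal KCl, and with rescaling to ribosomal protein genes 6 after KCl. Their summed level was 239.0 FPKM in wild-type basal, 283.2 in wild-type KCl, 479.7 in cKO basal and 620.5 in cKO KCl. Rgs10, higher in both cKO libraries, moved with them by genotype, and Rgs1, an R4 gene of immune cells, did so too, at 0.895, 1.18, 2.57 and 2.91 FPKM. Of 13 mural and fibroblast markers 11 reached 1 FPKM, and 5 of these were higher in the cKO at basal KCl, 7 after KCl and none lower. After KCl 3 of the 11 were at least 2-fold higher in wild type and 6 in the cKO, beside 5.07% and 4.41% of all genes. With rescaling to ribosomal protein genes 2 were higher in each genotype, beside 398 and 321 of all 13248 genes. The 13 markers summed to 34.2, 79.9, 92.4 and 283.9 FPKM in the same order. Rgs5, which is one of them, stood at 2.62, 6.55, 13.6 and 31.0 FPKM. Its neighbour Rgs4, also a gene of mural cells, had its highest value in the same library, as did Rgs16. Rgs16 stood at 1.91, 6.44, 1.51 and 19.8 FPKM in the same order of libraries. Of 8 endothelial markers 2 reached 1 FPKM, Cldn5 and Ly6c1 were at 0 in every library, and the sum was between 1.82 and 7.65 FPKM. The part of these cell types in the RGS differences was not tested.

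**Figure D5:**
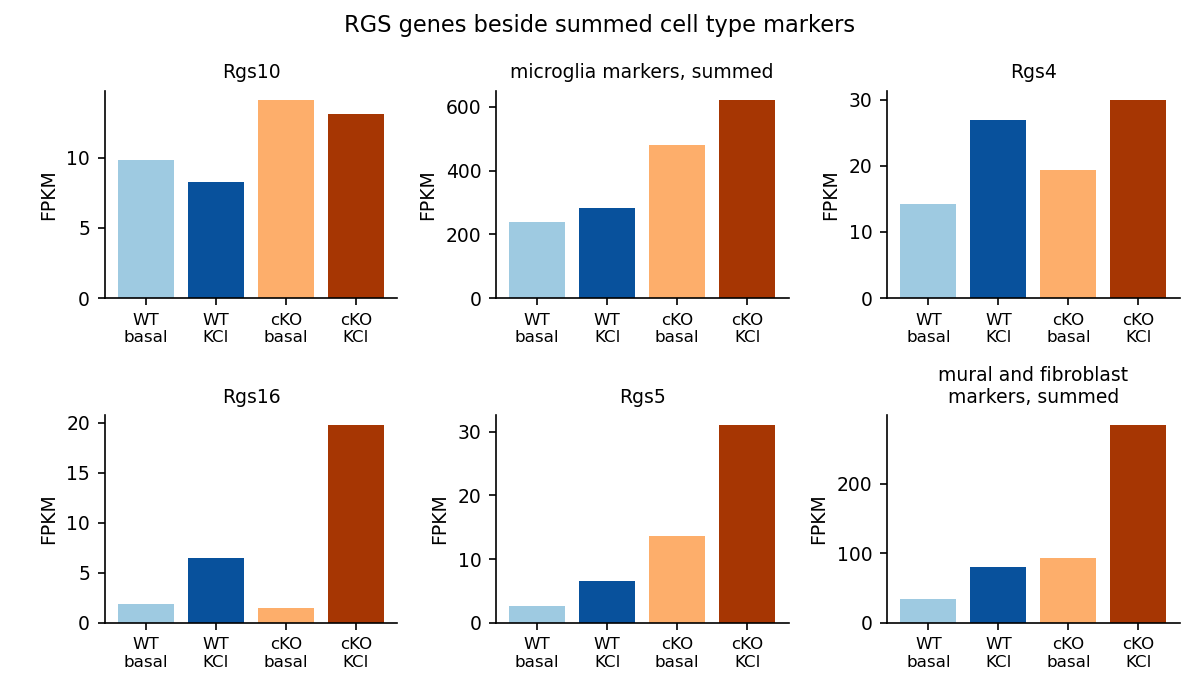
FPKM of Rgs10, Rgs4, Rgs16 and Rgs5 beside the summed FPKM of the 12 microglia and the 13 mural and fibroblast markers (which include Rgs5), 1 library per bar, WT for wild type. All except Rgs10 are highest in the cKO KCl library, and Rgs10 is highest in the cKO basal library.

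Neuronal and glial markers were counted in the same way. None of 10 interneuron markers that reached 1 FPKM was past 2-fold between genotypes, but 5 were lower after KCl in wild type and 6 in the cKO, with summed levels of 166.1, 71.0, 150.8 and 62.2 FPKM. Over all genes 3.31% were at least 2-fold lower after KCl in wild type and 3.09% in the cKO. With rescaling to ribosomal protein genes 8 interneuron markers were lower in each genotype, beside 1156 and 1130 of all 13248 genes. With rescaling to presynaptic genes 5 were, beside 208 and 218 of all genes. Rgs8, Rgs12 and Rgs17 were lower in the same KCl libraries. By any amount, 6703 of all 13248 genes were lower after KCl in wild type and 6448 in the cKO. Excitatory neuron markers summed to 435.7, 397.5, 453.7 and 292.4 FPKM. Of these 12, 2 were lower after KCl in wild type and 3 after KCl in the cKO, which became 4 and 5 with rescaling to ribosomal protein genes and 1 and 3 with rescaling to presynaptic genes. Between genotypes 1 was lower in the cKO after KCl, and none was with rescaling to presynaptic genes. Astrocyte markers summed to between 664.3 and 902.6 FPKM, with 1 of 9 lower in the cKO in each condition. Oligodendrocyte markers summed to 623.2 and 730.2 FPKM for wild type against 392.5 and 351.9 for the cKO, with 4 of 9 lower in each condition. Over all genes 0.551% were lower in the cKO at basal KCl and 0.944% after KCl. The part of these cell types in the RGS values was not tested.

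Of the 11 other RGS family genes in the table, 6 reached 1 FPKM. Rgs5 was the only one of these past 2-fold on the log2(FPKM + 1) scale, and with rescaling to ribosomal protein genes it was past 2-fold for genotype but not for KCl. Rgs1 was 2.87-fold higher in the cKO at basal KCl (2.20 to 3.84) and 2.46-fold higher after KCl (1.93 to 3.13), short of 2-fold once 1 was added to its low values and past it with rescaling to presynaptic genes. Rgs19, the remaining RZ gene, stood at 14.6 FPKM in wild-type basal, 9.17 in wild-type KCl, 16.0 in cKO basal and 13.8 in cKO KCl. It was 1.60-fold lower after KCl in wild type (1.28 to 2.03) and 1.16-fold lower in the cKO (0.955 to 1.41), where the sign turned with rescaling to presynaptic genes. Of the R7 genes, Rgs6 stood at 11.2, 13.0, 10.3 and 9.45 FPKM, Rgs9 at 3.82, 3.54, 2.50 and 2.58, and Rgs11 at 1.74, 1.28, 1.28 and 0.708. After KCl the cKO value was 1.38-fold lower for Rgs6 (1.18 to 1.62), 1.37-fold lower for Rgs9 (1.04 to 1.78) and 1.81-fold lower for Rgs11 (1.15 to 2.87), and these signs held under each rescaling. Rgs14 (0.604 to 0.747 FPKM), Rgsl1, Rgs13, Rgs22 and Rgs18 stayed under 1 FPKM, and Rgs18 was at 0 in both wild-type libraries.

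Of the R7 partners that reached 1 FPKM, Rgs7bp stood farthest from Rgs7 in its wild-type KCl ratio. Rgs7bp, the palmitoylated anchor that holds R7 dimers at the membrane, stood at 13.5 FPKM in wild-type basal, 29.4 in wild-type KCl, 12.8 in cKO basal and 15.1 in cKO KCl. The wild-type KCl library stood above the other 3. Its KCl value was 2.18-fold higher in wild type (2.07 to 2.30) and 1.18-fold higher in the cKO (1.11 to 1.25), a log2 difference in response of −0.85. With rescaling to ribosomal protein genes its wild-type log2 ratio of 1.07 became 0.74, under 2-fold, and the sign in the cKO turned, while the difference was −0.90. Gnb5, the obligate partner, stood at 25.6, 20.6, 26.3 and 21.1 FPKM, so its KCl libraries were 1.24-fold and 1.25-fold lower. Rgs9bp, the anchor known from photoreceptors, stayed under 1 FPKM. The receptor-like R7 anchor Gpr158 stood at 3.09, 2.75, 2.39 and 2.03 FPKM.

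Genes of the G protein cycle were mostly within 2-fold. None of 12 Gα genes that reached 1 FPKM was past 2-fold in any comparison, although 1 was higher after KCl in each genotype with rescaling to presynaptic genes. The most abundant, Gnas, which encodes Gαs, stood at 596, 776, 566 and 739 FPKM. Of 12 Gβ and Gγ genes, Gng11 was higher in all 4 comparisons (0.767, 2.95, 3.93 and 9.36 FPKM), though with rescaling to ribosomal protein genes no member was past 2-fold upwards for KCl and 1 was lower in each genotype. Gng4 was lower in the cKO after KCl (10.4, 5.82, 4.92 and 2.31 FPKM), but no member was with rescaling to presynaptic genes. None of the 14 other proteins with an RGS domain, among them axins and GRK kinases, was past 2-fold, and neither was any of 14 effectors (adenylyl cyclases, phospholipase C β and GIRK channels) or 5 modulators of Gα nucleotide exchange. With rescaling to ribosomal protein genes 1 of the proteins with an RGS domain was lower after KCl in wild type and 2 of the effectors were lower in the cKO.

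Receptors upstream of these proteins were counted next. Of 20 receptors coupled to Gi or Go that reached 1 FPKM, 3 were at least 2-fold lower in wild type and 4 in the cKO, none was higher, and the median log2 ratios were −0.44 and −0.54. With rescaling to ribosomal protein genes 5 and 9 were lower, and the medians were below 0 under each rescaling. The serotonin receptor gene Htr1a stood at 4.42 FPKM before and 0.743 after KCl in wild type, then 5.00 and 1.43 for the cKO. The nociceptin receptor gene Oprl1 stood at 29.5 and 9.54 FPKM and at 30.1 and 11.4, and the somatostatin receptor gene Sstr4 at 4.33 and 0.771 and at 2.89 and 0.635. The noradrenaline receptor gene Adra2a, past 2-fold in the cKO, went from 6.60 to 3.38 FPKM in wild type, and from 11.5 to 3.74 there. Of 10 receptors coupled to Gq, 2 were higher after KCl in each genotype and none was lower. Over all genes 5.07% were higher in wild type and 4.41% in the cKO. The noradrenaline receptor gene Adra1d stood at 0.223 and 1.93 FPKM in wild type and at 0.0890 and 2.23 in the cKO. The thrombin receptor gene F2r stood at 22.0 and 47.2 FPKM, then 24.9 and 62.3. The median log2 ratios of these 10 were −0.30 and −0.38, with 6 of the 10 below 0 in each genotype. With rescaling to ribosomal protein genes 1 was higher in each genotype, 2 were lower in wild type and 3 in the cKO.

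Genes with the most similar profiles were found for the 3 RGS genes that spanned 1 or more on the log2(FPKM + 1) scale. Likeness was the Euclidean distance between the 4 log2(FPKM + 1) values, each gene centred on its own mean. For Rgs2 the 3 nearest were Smek1 (distance 0.098), Eid3 (0.104) and Rrm1 (0.111). For Rgs4 they were Slc2a10 (0.043), Zfp36l2 (0.058) and Nfe2l2 (0.063). For Rgs16 they were the metalloproteinase inhibitor gene Timp3 (0.343), the matricellular gene Thbs2 (0.376) and the early response gene Ier3 (0.400). Within a distance of 0.25 there were 86 genes for Rgs2 and 179 for Rgs4, and none for Rgs16. With 4 values per gene such closeness is a description of these libraries.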

How the data were processed

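RNA was sequenced in 4 libraries, 1 per group, and the authors deposited 1 table of values per gene. The labels do not name the unit. It was read from the deposited values as FPKM, which are not whole numbers and sum to a different total in each library. TopHat 1.3.2 and mm9 appear in the submitters' processing notes, and the program that made the gene values is not given in the sources used here. Genes that reached 1 FPKM somewhere among the 4 libraries were kept. Ratios were put on a log2 scale with a pseudocount of 1, and 2-fold was the fixed size for a call. Depth was approximated from the most frequent FPKM of low genes multiplied by the length of their single GENCODE M21 transcript of over 2000 bases, a step that assumes 1 fragment. Intervals of ratios are exact binomial ones on these fragments, and those of differences in response are normal approximations on the log scale. Annotation on GRCm38 differs from the authors' build and was used for lengths, names, order of genes and promoters only. Members and lists were chosen with earlier results of these data known. Named genes were the RGS family, Smarca4, list members past 2-fold (at most 4 per list and comparison) or highest in level, and the nearest profiles. Xist, some marker genes at 0 and others given as examples fall outside this rule. No test was run. Alternatives were another pseudocount, other filters and 3 rescalings. The 2-fold call was run on simulated counts with larger set changes and counting error only. The simulation held no spread between cultures, so it says nothing about that spread. Python 3.11.15, NumPy 2.4.6, pandas 2.3.3, SciPy 1.17.1 and matplotlib 3.10.9 were used.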

Additional observations from a re-analysis of the deposited data

Results flagged for a closer look

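Rgs2 had opposite genotype differences in the 2 conditions, each with a counting interval that left out no difference. It was higher in the cKO at basal KCl (log2 ratio 0.32) and lower after KCl (−0.38), a change of −0.71. The signs were opposite under every scaling and pseudocount tried, but the size moved. With rescaling to presynaptic genes the log2 ratio after KCl was −0.15 and that at basal KCl 0.54. The intervals were taken on the deposited scale only. The lower bound of the basal fold lay at 1.00, and the difference between conditions was not tested, since each rests on 1 library per group.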

How the results depend on the processing

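No paired analysis was possible because each group holds 1 library, and for the same reason no library could be left out. With a pseudocount of 0.1 the genes past 2-fold numbered 1867 in place of 1111 for KCl in wild type, 1665 in place of 994 for KCl in the cKO, 509 in place of 197 for genotype at basal KCl, 726 in place of 373 for genotype after KCl and 377 in place of 194 for the difference in response. A minimum of 5 FPKM keeps 10000 genes in place of 13248, and 8 of the 10 RGS genes. With it the genes past 2-fold numbered 245 for genotype after KCl and 83 for the difference in response. Of the 10 RGS genes, 2 in place of 1 were past 2-fold for KCl in the cKO with a pseudocount of 0.1, and also with no pseudocount, which was chosen after seeing the data: Rgs8 was added. For KCl in wild type 1 in place of 2 was past 2-fold with rescaling to ribosomal protein genes, where Rgs2 was lost. The wild-type count was 3 with a pseudocount of 0.1 and with none, where Rgs8 was added as lower. It was also 3 with rescaling to presynaptic genes, where Rgs4 was added as higher. Of 200 log2 ratios of single RGS genes under the other pseudocount and the rescalings, 170 stayed within the counting error of the main value, 30 moved further and none past 2-fold changed sign. Ratios under 2-fold did change sign in some comparisons, for Rgs3, Rgs7, Rgs8, Rgs10, Rgs12, Rgs17 and Rgs20. Each such turn came with rescaling to ribosomal protein genes or to presynaptic genes. Depth limits Rgs8 and Rgs3 most.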
